A study of Mus musculus with 71 samples.

Results

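The NK cell receptors described here are 8 genes measured in intestinal γδ intraepithelial lymphocytes (γδ IELs): Klra1, Klra5, Klra7, Klrd1, Klre1, Klrk1, Klrc1 and Cd160. They were named as a list and not picked by a cut on their values, though earlier results of these data were known when the list was made. They are 8 of the 24475 gene identifiers in the bulk RNA-sequencing table and 8 of the 24495 gene symbols in the single-cell tables. The study compared Btnl2-KO with WT mice along the small intestine, which was cut into duodenum, jejunum and ileum, and asked how loss of the butyrophilin-like molecule Btnl2 changes γδ IELs in each segment. Cells were sorted as CD45+ TCRβ- TCRγδ+, so that no receptor of the list served in the gate. There were 4 WT bulk libraries of each segment, and 3 Btnl2-KO libraries of duodenum, 4 of jejunum and 3 of ileum. Of single cells there was 1 library per segment and genotype, 6 in all.

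All mice were on the C57BL/6 background, and the Btnl2-KO animals (Btnl2-/- in the labels) carry a LacZ knock-in null allele in the whole body. The labels give an age of 10 weeks for the mice of the bulk libraries and of 8 to 10 weeks for those of the single-cell libraries. Each bulk library is a pool of mice, and each single-cell library was pooled from part of the same sorted material, so the bulk and the single-cell values are not independent of each other. WT and KO animals were cohoused female littermates, and which segments came from the same animals is not given in the labels. The p-values below therefore measure the spread between pools.

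NK cell receptors read ligands on the surface of other cells and either restrain or trigger killing. Most of them are C-type lectins encoded side by side in the NK gene complex. Receptors with an immunoreceptor tyrosine-based inhibitory motif recruit the phosphatase SHP-1 (Ptpn6), while activating receptors have no signalling motif of their own and pair with the adaptors DAP12 (Tyrobp), DAP10 (Hcst) or FcRγ (Fcer1g). Many γδ IELs and CD8αα+ IELs carry such receptors and, like NK cells, store granzymes.

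By role, the list holds the common chain CD94 (Klrd1) and its partner NKG2A (Klrc1), which together form an inhibitory receptor for the non-classical MHC molecule Qa-1 (H2-T23). Klre1 pairs with Klri1 or Klri2. NKG2D (Klrk1) recognizes stress ligands of the Rae1, H60 and Mult1 families and signals through Hcst and, in mice, Tyrobp. Klra1 (Ly49A) and Klra7 (Ly49G) are inhibitory receptors for classical MHC class I, and Klra5 (Ly49E) belongs to the same family. Cd160 is an immunoglobulin-superfamily protein that binds HVEM (Tnfrsf14) and MHC class I.

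In GRCm38 the lectin genes lie together on chromosome 6. From proximal to distal these are Klre1 (chr6:129559365-129585828), Klrd1 (chr6:129588092-129598775), Klrk1 (chr6:129610323-129623903), Klrc1 (chr6:129666015-129682852), Klra5 (chr6:129898988-129913237), Klra7 (chr6:130218605-130233322) and Klra1 (chr6:130363918-130386874). Cd160 lies apart from them, at chr3:96798763-96829351.

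Sequence bears on these genes because the family arose by duplication. RefSeq promoter windows of 300 bases (GRCm38.p6, 250 bases before to 50 after a start) were at hand for 7 of the 8 members, 10 windows in all, with none listed for Klrd1. Between the window of Klra5 (chr6:129913175-129913474, minus strand) and the distal window of Klra7 (chr6:130233273-130233572, minus strand), 228 of 277 aligned bases were identical (82.3%), or 76% of the window. The other 41 pairs of windows of different members shared 48.3 to 57.3% of the window. These 2 windows are shown because the related genes differed in level, and in single cells went in different directions between segments, as given below. Capitals mark runs of 12 or more bases that are the same in both, 81 bases in each.
Klra5 window: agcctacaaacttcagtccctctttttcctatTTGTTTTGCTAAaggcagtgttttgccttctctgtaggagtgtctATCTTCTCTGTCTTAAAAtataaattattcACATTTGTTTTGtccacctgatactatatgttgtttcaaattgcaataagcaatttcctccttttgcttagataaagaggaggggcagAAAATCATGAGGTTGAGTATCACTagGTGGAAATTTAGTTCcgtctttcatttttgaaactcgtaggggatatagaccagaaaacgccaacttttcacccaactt
Klra7 distal window: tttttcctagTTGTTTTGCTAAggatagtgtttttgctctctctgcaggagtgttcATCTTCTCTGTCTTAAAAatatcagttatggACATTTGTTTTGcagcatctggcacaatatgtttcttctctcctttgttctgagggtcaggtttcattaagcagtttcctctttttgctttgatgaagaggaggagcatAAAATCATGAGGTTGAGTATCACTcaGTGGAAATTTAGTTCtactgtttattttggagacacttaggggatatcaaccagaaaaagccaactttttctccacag
The window of Klrk1 (chr6:129623815-129624114, minus strand) is shown because Klrk1 had the largest log2 fold change among the members called between segments. Capitals mark TGTGGT, the core motif of Runx factors.
Klrk1 window: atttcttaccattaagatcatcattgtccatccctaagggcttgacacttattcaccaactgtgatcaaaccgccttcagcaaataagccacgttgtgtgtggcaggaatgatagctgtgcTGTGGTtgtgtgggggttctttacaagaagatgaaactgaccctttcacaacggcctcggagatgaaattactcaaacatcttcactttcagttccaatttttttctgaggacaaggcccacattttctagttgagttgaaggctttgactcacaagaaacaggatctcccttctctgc
TGTGGT or its reverse complement ACCACA was present in 6 of the 10 member windows and in 5506 of 32851 windows of all genes (16.8%). The T-box letters AGGTGTGA or TCACACCT were in 0 of the 10 member windows and in 419 of all windows (1.28%). These matches describe letters in a window and are not binding sites.

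Reads that fit several family members could be divided among them by the authors' counting. Of the 55-base words in GENCODE M21 transcripts of Klrc1, 35.3% also occurred in another gene, mostly Klrc2 (33.8%). For Klra7 the share was 10.4%, all with Klra13-ps, for Klra1 it was 2.4%, all with Klra4, and for Klra5 it was 0.0731%. With 100-base words, 14.6% remained for Klrc1 and 1.83% for Klra7. Values of Klrc1, and to a smaller extent of Klra7, are uncertain by that sharing.

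Bulk totals ranged from 13444958 to 30029485 reads per library (median 18277158). Btnl2 itself had 37 to 327 reads in the 12 WT libraries and 0 to 2 in the 10 KO libraries, as the labels give. The single-cell tables held 23824 cells with at least 500 genes (3617 to 4678 per library), with a median of 4869.5 to 5463 UMIs (unique molecular identifiers, each standing for 1 captured transcript) per cell. A Cd3d, Cd3e or Cd3g UMI was found in 99.2 to 99.7% of the cells of each library, and 19 to 31 cell barcodes were shared between any 2 libraries. Summed CPM (reads of a gene scaled to a common library total) of 12 epithelial marker genes, a sign of epithelial RNA in the sorted pools, ran from 605 to 9033 over the bulk libraries.

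CD94 and CD160 were the receptors of most γδ IELs, and the others belonged to minorities. Per kilobase of exon, the median bulk level over the 22 libraries was 553 CPM for Klrd1 and 355 for Cd160, against 31.3 for Klra5, 8.28 for Klrc1, 8.07 for Klre1, 7.61 for Klra7, 1.35 for Klrk1 and 1.29 for Klra1. The ranges over libraries overlapped between neighbours in this order, except that the lowest library of Cd160 (645 CPM) was above the highest of Klra5 (97.9 CPM) before and after division by length. In single cells, a Klrd1 UMI was found in 78.9 to 82.6% of the cells of each library and a Cd160 UMI in 70.9 to 81.0%. Klre1 was found in 9.38 to 14.8% of cells, Klra5 in 5.96 to 10.2%, Klrc1 in 2.70 to 6.58%, Klrk1 in 1.06 to 5.69%, Klra7 in 0.626 to 2.16% and Klra1 in 0.0506 to 0.620%.

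Free RNA was gauged in 112 epithelial-like cells (at least 5 UMIs of epithelial markers and none of the 3 Cd3 genes), whose median depth was 10797.5 UMIs against 5091.5 over all cells. Klrd1 was found in 2 of them (1.79%) and each of the other 7 receptors in 0 of 112, which allows a share of up to 2.68% by 3 counts and 3.24% by the exact interval. The shares of Klra1 and Klra7 in every library, and of Klrk1 in 4 of 6 libraries, were under both limits, so these receptors were set against free RNA by their levels. For a level, 0 UMIs in these cells allow up to 0.0200 UMIs per 10,000 (exact Poisson limit, counting error only). The level of Klra1 was below that limit in the 4 duodenal and jejunal libraries (0.00193 to 0.0144), and its interval included the limit in WT and KO ileum (0.0222 and 0.0210), so by level alone Klra1 was not distinguishable from free RNA at this depth. Its UMIs lay in few cells, with 46 UMIs in 16 cells of WT ileum and 59 in 29 cells of KO ileum. Whether free RNA would be spread in this way was not tested. The levels of the other 7 members exceeded the limit in every library.

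Where a receptor was present, the number of its UMIs in a cell differed by gene. Cells with Klrd1 held 6.06 to 6.66 Klrd1 UMIs on average over the libraries, and cells with Cd160 3.71 to 5.02. Although few cells held Klra5, those that did held 3.52 to 3.98 UMIs of it, and 59.2 to 65.5% of them held 3 or more. Cells with Klra7 held 2.64 to 5.19 UMIs. By contrast Klrk1 was found at 1.35 to 1.89 UMIs, Klre1 at 1.82 to 2.17 and Klrc1 at 2.02 to 2.53 UMIs per cell with the gene, close to the single UMI at which a cell can be missed.

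**Figure D1:**
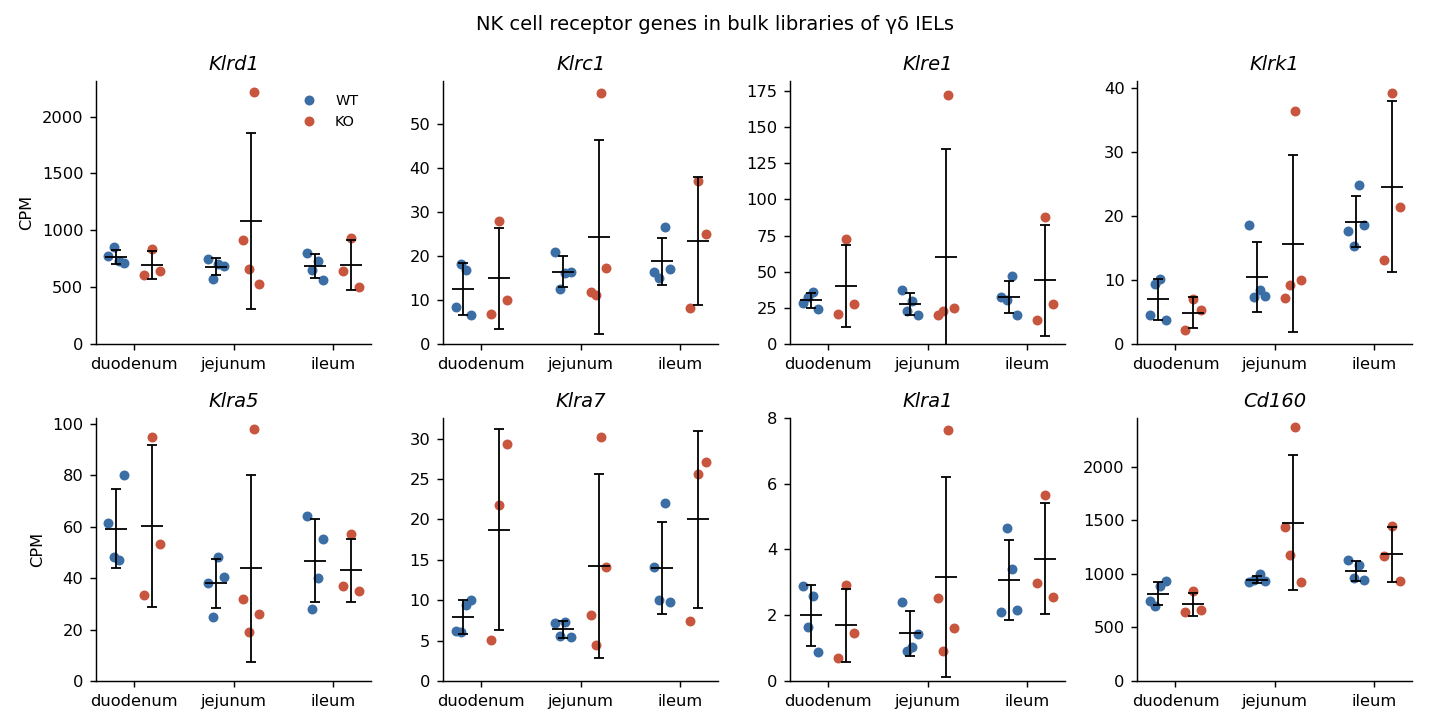
Bulk expression of the 8 receptors in CPM (linear axes from 0) by segment, with WT and Btnl2-KO libraries as separate points and bars for the mean ± SD of 3 or 4 libraries. Klrk1 is higher in ileum than in duodenum in both genotypes, and 1 jejunal KO library stands above the other 3 for most receptors.

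Along the intestine, NKG2D was higher in WT ileum than in WT duodenum. In WT duodenum, Klrk1 was at 4.58, 9.39, 10.2 and 3.77 CPM, and in WT ileum at 17.8, 15.4, 24.8 and 18.6 CPM. The WT jejunum was at 18.6, 7.38, 8.49 and 7.54 CPM, with 3 of its 4 libraries inside the duodenal range. All 4 ileal libraries were above all 4 duodenal libraries, and 1 jejunal library reached the ileal range. In bulk pools, fewer cells with a receptor and less of its RNA per cell cannot be told apart.

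Group means of Klrk1 in WT were 6.98 ± 3.27 CPM in duodenum and 19.2 ± 4.01 in ileum (SD, n = 4 each). The log2 fold change of ileum against duodenum was 1.45 ± 0.32 (SE; edgeR quasi-likelihood test, adjusted p = 0.0370). Of the 8 members Klrk1 alone was called there (2 had an unadjusted p below 0.05), where 2.16% of all genes tested were called (adjusted p below 0.05 and a fold change above 1.5). DESeq2 and limma-voom also called Klrk1 alone, with 4.01% and 4.34% of all genes called. The call was lost when any of 4 libraries was left out (duodenal replicates 1 and 4 or ileal replicates 3 and 4), with edgeR adjusted p-values from 0.0222 to 0.139 and log2 fold changes from 1.25 to 1.70 over the 8 fits. It was also lost with the epithelial level as a covariate (edgeR adjusted p = 0.0671), with scaling to T cell genes (0.085) and with all 22 libraries in 1 fit (0.283). Of the 12 epithelial genes, 11 were higher in WT ileum than in WT duodenum (median log2 fold change 0.55), and 1 of them was called.

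Against WT jejunum, Klrk1 was 0.88 ± 0.31 higher in WT ileum on the log2 scale (edgeR, adjusted p = 0.0495), a call lost when any of 7 of the 8 libraries was left out (log2 fold change 0.73 to 1.31). In Btnl2-KO pools the same segments gave 2.28, 7.14 and 5.33 CPM in duodenum and 13.2, 39.2 and 21.4 CPM in ileum, again with no overlap. The Klrk1 log2 fold change was 2.36 ± 0.53 (edgeR, adjusted p = 0.119), which did not pass, while DESeq2 and limma-voom called it (adjusted p = 0.00053 and 0.0252). In this comparison edgeR called 0 of the 8 members and 0.505% of all genes tested, DESeq2 1 member (3.75% of all genes) and limma-voom 2 (5.39% of all genes), the other being Cd160 (adjusted p = 0.0282).

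In the single-cell libraries the direction of Klrk1 was the same. Its level was 0.0471 UMIs per 10,000 in WT duodenum, 0.0422 in WT jejunum and 0.110 in WT ileum, and 0.0371, 0.0845 and 0.179 in KO duodenum, jejunum and ileum. Ileum over duodenum was 2.34 (1.85 to 2.98, exact 95% interval for counting error only) in WT and 4.82 (3.79 to 6.21) in KO. The share of cells with a Klrk1 UMI was 1.83, 1.66 and 3.69% in WT and 1.06, 2.47 and 5.69% in KO from duodenum to ileum. After each cell was thinned to 2000 UMIs, the shares were 0.916, 0.738 and 1.67%, and 0.605, 1.19 and 2.57%. The intervals of WT jejunum and WT duodenum overlapped, and the ileum was above both other segments in either genotype.

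Ly49G also stood higher in ileum. Klra7 was at 7.21, 5.51, 7.32 and 5.49 CPM in WT jejunum and at 14.1, 9.96, 22 and 9.83 CPM in WT ileum, without overlap. The log2 fold change was 1.14 ± 0.28 (edgeR, adjusted p = 0.0125), and it stayed called in all 8 fits without 1 library, with adjusted p-values of 0.00929 to 0.0411 in edgeR. With all 22 libraries in 1 fit it was not called (edgeR adjusted p = 0.133), nor was Klrk1 between these segments (0.213). With Klrk1 it made 2 of the 8 members called between these segments, both higher in ileum, where 21.7% of all genes tested were called. Of the 12 epithelial genes, 5 were also called higher in ileum and 1 lower. With the epithelial level as a covariate, 3 of the 8 members were called between these segments, Klra7 (log2 fold change 1.34), Klrk1 (1.21) and Klra5 (0.80). The share of all genes called in that fit is not given here, so this count is not a result about the receptors as a set. DESeq2 and limma-voom each called Klra7, Klrk1 and Klra1 between these segments, with 23.3% and 33.3% of all genes called. WT duodenum was at 6.13, 6.10, 9.42 and 9.98 CPM of Klra7, close to the lower ileal libraries, and the 2 outer segments were not called different.

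Ly49E was lower in WT jejunum than in WT duodenum. Klra5 was at 61.5, 48.2, 47.1 and 80.1 CPM in WT duodenum, at 38.2, 25, 48.2 and 40.4 CPM in WT jejunum and at 64.2, 27.9, 40.0 and 55.2 CPM in WT ileum. The duodenal and jejunal values overlapped in 1 library. The log2 fold change of jejunum against duodenum was -0.66 ± 0.22 (edgeR, adjusted p = 0.0421); of the 8 members 1 was called, against 23.3% of all genes tested. DESeq2 also called Klra5 alone (24.8% of all genes called) and limma-voom called 0 members (27.8%), since its fold change for Klra5 was under 1.5. The Klra5 call was lost when any of 5 of the 8 libraries was left out (log2 fold change -0.80 to -0.47), and with all 22 libraries in 1 fit (edgeR adjusted p = 0.268). In single cells, the level of Klra5 was 0.632 in WT duodenum, 0.568 in WT jejunum and 0.449 in WT ileum, and 0.688, 0.387 and 0.461 in KO, in UMIs per 10,000. Ileum over duodenum was 0.710 (0.653 to 0.771) in WT and 0.670 (0.621 to 0.722) in KO.

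Klrd1, the chain shared by most cells, differed little by segment. WT pools held 776, 855, 732 and 713 CPM in duodenum, 749, 575, 704 and 690 CPM in jejunum and 800, 652, 735 and 562 CPM in ileum, and the 3 ranges overlapped. In single cells Klrd1 was at 9.68, 9.64 and 9.70 UMIs per 10,000 in WT and 9.37, 9.09 and 9.16 in KO from duodenum to ileum, ratios of ileum over duodenum of 1.0 (0.983 to 1.02) and 0.978 (0.960 to 0.996). Its partner Klrc1 was higher in ileum in single cells, with ileum over duodenum at 1.72 (1.49 to 1.99) in WT and 2.36 (2.04 to 2.74) in KO. In the bulk pools Klrc1 was at 8.42, 18.2, 16.9 and 6.60 CPM in WT duodenum and at 16.4, 15.1, 26.6 and 17.1 CPM in WT ileum, ranges that overlap, and it was not called.

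Cd160 was at 749, 704, 882 and 931 CPM in WT duodenum, 923, 941, 994 and 929 CPM in WT jejunum and 1131, 958, 1080 and 941 CPM in WT ileum. The ileal libraries were all above the duodenal libraries, without a call in edgeR. In single cells the Cd160 level was 5.21, 5.93 and 6.49 UMIs per 10,000 in WT and 5.02, 6.39 and 6.76 in KO from duodenum to ileum, and ileum over duodenum was 1.25 (1.21 to 1.28) and 1.35 (1.32 to 1.38). Klre1 gave 1.06 (0.965 to 1.17) in WT and 1.64 (1.5 to 1.80) in KO, so its ratio was apart from 1 in KO. In bulk pools Klre1 was at 28.5, 32.7, 35.8 and 24.3 CPM in WT duodenum, 37.3, 23.2, 29.5 and 20.2 CPM in WT jejunum and 32.7, 30.4, 46.9 and 20.4 CPM in WT ileum, with overlap throughout. Klra1 was the member with fewest reads (11 to 125 per bulk library). It was at 0.864 to 2.90 CPM in WT duodenum, 0.908 to 2.4 CPM in WT jejunum and 2.09 to 4.66 CPM in WT ileum, and edgeR called it between no segments.

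Counted over genotypes, 5 of the 8 members (Klra1, Klra7, Klrk1, Klrc1 and Cd160) had a higher single-cell level in ileum than in duodenum in both WT and KO with intervals that did not overlap. With cells thinned to equal depth the count was 3 (Klrk1, Klrc1 and Cd160). Each group is 1 library, so that no difference between mice is covered by these intervals. The share of all genes that met the same rule is not given here, so these counts are not a result about the receptors as a set. Klra1, 1 of the 5, was not told apart from free RNA by its level.

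**Figure D2:**
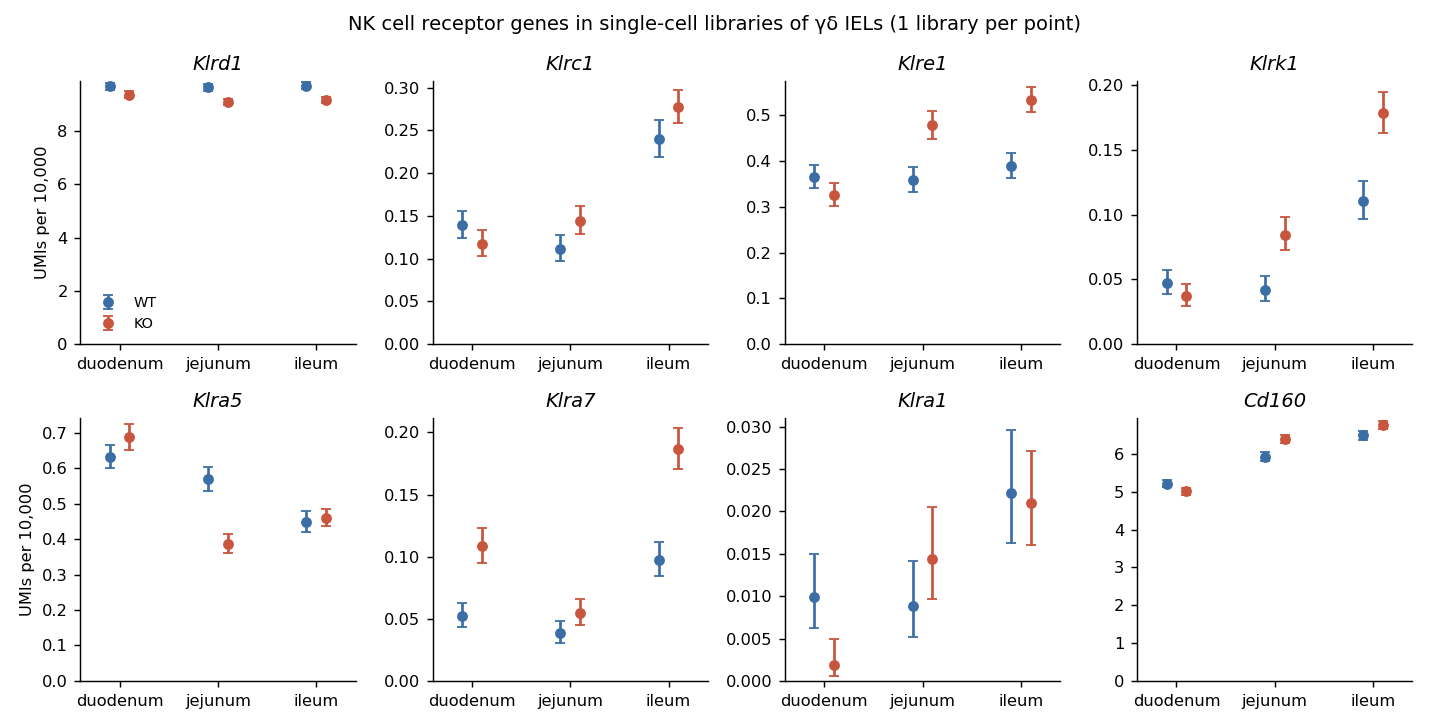
Single-cell levels of the 8 receptors in UMIs per 10,000 (axes from 0) by segment, with 1 WT and 1 Btnl2-KO library at each segment and bars for 95% Poisson intervals, which cover counting error only. Klrk1, Klrc1 and Cd160 are higher in ileum than in duodenum in both genotypes, Klra5 is lower and Klrd1 stays between 9.09 and 9.70.

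Several adaptor genes of these receptors were called between WT jejunum and WT duodenum, where 23.3% of all genes tested were called by edgeR. Of 12 tested genes of the adaptor and signalling list, 6 were called: Tyrobp (log2 fold change -1.09), Hcst (-1.02), Fcer1g (-0.60) and Ptpn11 (-0.65) were lower in jejunum, and Inpp5d (0.79) and Vav1 (0.78) higher. Among other lectins of the complex, 2 of 10 tested were called, Klri2 (1.29) and Clec2d (-1.04). Of 10 other NK receptors tested, 3 were called, all higher in jejunum: Ncr1 (1.98), Slamf6 (1.23) and Cd96 (0.78). None of 3 other Ly49 genes tested was called (0 with an unadjusted p below 0.05, and 0 by DESeq2 and limma-voom). The shares of the lectins and of the other NK receptors were near that of all genes. Tyrobp per 10,000 UMIs in single cells was 12.3, 9.89 and 7.10 in WT and 13.2, 8.30 and 6.79 in KO from duodenum to ileum.

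Between WT ileum and WT jejunum, edgeR called 21.7% of all genes tested. Of 12 tested adaptor and signalling genes, Inpp5d (-1.08) and Vav1 (-0.61) were lower in ileum, as was Cd96 (-0.62) among 10 other NK receptors. Of 9 tested regulators of NK-like T cells, 4 were lower in ileum: Il2rb (-0.96), Prdm1 (-0.88), Tcf7 (-0.83) and Tbx21 (-0.61). Of the 6 tested genes for ligands of these receptors, 0 were called between any of the segments in edgeR, DESeq2 or limma-voom, with 2 at an unadjusted p below 0.05 between WT jejunum and duodenum. The Qa-1 gene H2-T23 stood at 1.67 to 1.98 UMIs per 10,000 in the 6 single-cell libraries, and Tnfrsf14 at 0.0624 to 0.0807.

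Loss of Btnl2 gave no called change in any receptor. Of the 8 members, 0 were called in duodenum, jejunum or ileum in edgeR, DESeq2 or limma-voom, where edgeR called 0.00789%, 0.00794% and 0% of all genes tested, DESeq2 0.0316%, 0.0159% and 1.75%, and limma-voom 0.00789%, 0.00794% and 9.58%. At an unadjusted p below 0.05 in edgeR there were 1, 2 and 0 members, and over all genes tested 263, 805 and 1108. In ileum edgeR did not call Btnl2 itself (log2 fold change -5.92, adjusted p = 0.263), while DESeq2 and limma-voom called it. The edgeR count of 0 in ileum therefore does not show that the receptors are unchanged there. Over all segments in 1 fit with segment as a term, 0 of the 8 members were called in the 3 tools (1 at an unadjusted p below 0.05), with 0.015% of all genes called by edgeR, 0.015% by DESeq2 and 0.0225% by limma-voom. The interactions of genotype with segment called 0 members and 0% of all genes in either contrast with each of the 3 tools, with 0 members (ileum) and 1 member (jejunum) at an unadjusted p below 0.05 in edgeR.

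Other genes of the pathway lists (Ly49 genes, lectins of the complex, further NK receptors, adaptors, ligands and regulators) gave 0 calls by edgeR and DESeq2 between genotypes in the 3 segments. In ileum, limma-voom called 2 adaptor or signalling genes and 1 regulator, and edgeR gave 2 and 2 at an unadjusted p below 0.05.

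Ly49G was the receptor with the lowest p in the fit over all segments. Klra7 was at 5.03, 21.8 and 29.4 CPM in KO duodenum, 8.17, 4.48, 30.2 and 14.2 CPM in KO jejunum and 7.41, 25.6 and 27.0 CPM in KO ileum. In each segment the lowest KO library was below every WT library and the highest above every WT library, so the groups overlapped. Log2 fold changes of KO against WT in edgeR were 1.25 ± 0.46 in duodenum, 1.22 ± 0.53 in jejunum and 0.55 in ileum. In limma-voom they were 0.83 in duodenum, 0.56 in jejunum and -0.63 in ileum. Over all segments the log2 fold change was 0.99 (edgeR, adjusted p = 1.0, and 0.961 at the lowest when a library was left out). Leaving out each of the 22 libraries in turn gave no call.

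Single-cell levels of Klra7 were higher in KO in the 3 segments, the direction of the edgeR values. They were 0.0520, 0.0386 and 0.0974 UMIs per 10,000 in WT and 0.108, 0.0547 and 0.187 in KO from duodenum to ileum. KO over WT was 2.08 (1.66 to 2.63), 1.42 (1.05 to 1.93) and 1.91 (1.62 to 2.26). These libraries share animals with the bulk pools, so the 2 assays are not separate evidence.

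The other receptors spread widely among the KO pools. In duodenum KO held 606, 837 and 641 CPM of Klrd1, 33.2, 94.9 and 53.1 CPM of Klra5 and 20.7, 72.8 and 27.8 CPM of Klre1, so that KO replicate 2 was highest for all 3. In ileum KO held 645, 933 and 505 CPM of Klrd1, 36.8, 57.2 and 35.0 CPM of Klra5 and 16.8, 87.9 and 27.9 CPM of Klre1, again with replicate 2 highest. Whether pools of different segments with the same replicate number share animals is not given in the labels, and each of these groups overlapped its WT group.

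The other receptors did not all go the same way in single cells. Klrk1, Klre1, Klrc1 and Cd160 were lower in KO in duodenum and higher in KO in jejunum and ileum. Klrd1 was slightly lower in KO in each segment. Each value compares 1 library with 1 library, and the intervals cover counting error only. KO over WT of Klrk1 was 0.787 (0.579 to 1.07) in duodenum, 2.00 (1.53 to 2.64) in jejunum and 1.62 (1.38 to 1.90) in ileum. Klra5 was lower in KO jejunum, at 0.681 (0.621 to 0.747), and 1.09 and 1.03 in duodenum and ileum. Klre1 was at 0.891, 1.33 and 1.37, and Klrc1 at 0.842, 1.30 and 1.16. For Klrd1 the ratios were 0.968, 0.943 and 0.944, and for Cd160 0.962, 1.08 and 1.04. Klra1, on 4 to 59 UMIs per library, was at 0.195 (0.0489 to 0.574), 1.63 and 0.946.

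The jejunal bulk comparison rests on 1 library. All 8 members had a positive log2 fold change there, with a median of 0.71, against 47.3% of all genes tested. Jejunal KO replicate 3 held 172 CPM of Klre1, 2217 of Klrd1, 97.9 of Klra5, 36.4 of Klrk1, 57.1 of Klrc1 and 2371 of Cd160, the highest of the 4 KO libraries for each. The other 3 KO libraries held 20.3 to 25.2 CPM of Klre1, 531 to 917 of Klrd1 and 7.15 to 10.0 of Klrk1. The same library also had the highest sum of the T cell genes of all 22 libraries (19806 CPM), with 1504 CPM of the epithelial genes, and the part of these in the result was not tested.

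Without that library, the jejunal log2 fold changes were 0.07 for Klrd1, -0.25 for Klre1, -0.23 for Klrk1, -0.27 for Klrc1, -0.53 for Klra5, 0.34 for Cd160, 0.24 for Klra1 and 0.51 for Klra7. In ileum, 7 of the 8 members were positive in edgeR (median 0.33, against 57.1% of all genes positive), none called. The direction depended on the tool. In limma-voom the values were -0.94 for Klrc1, -0.77 for Klre1, -0.63 for Klra7 and -0.40 for Klrk1. They were -0.07 for Klra1 and Klra5, -0.06 for Klrd1 and 0.19 for Cd160. With 1 library left out in edgeR, only Klra7 and Cd160 stayed positive in every fit (0.29 and 0.02 at the lowest). The 3 ileal KO libraries held 1014 to 3635 CPM of epithelial genes against 3461 to 9033 in the 4 ileal WT libraries, and 11 of 12 epithelial genes were lower in KO (0 called by edgeR, 8 with an unadjusted p below 0.05, 6 called by DESeq2 and 11 by limma-voom). With the epithelial level as a covariate, 0 of the 8 members were called in ileum, and the share of all genes called in that fit is not given here.

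**Figure D3:**
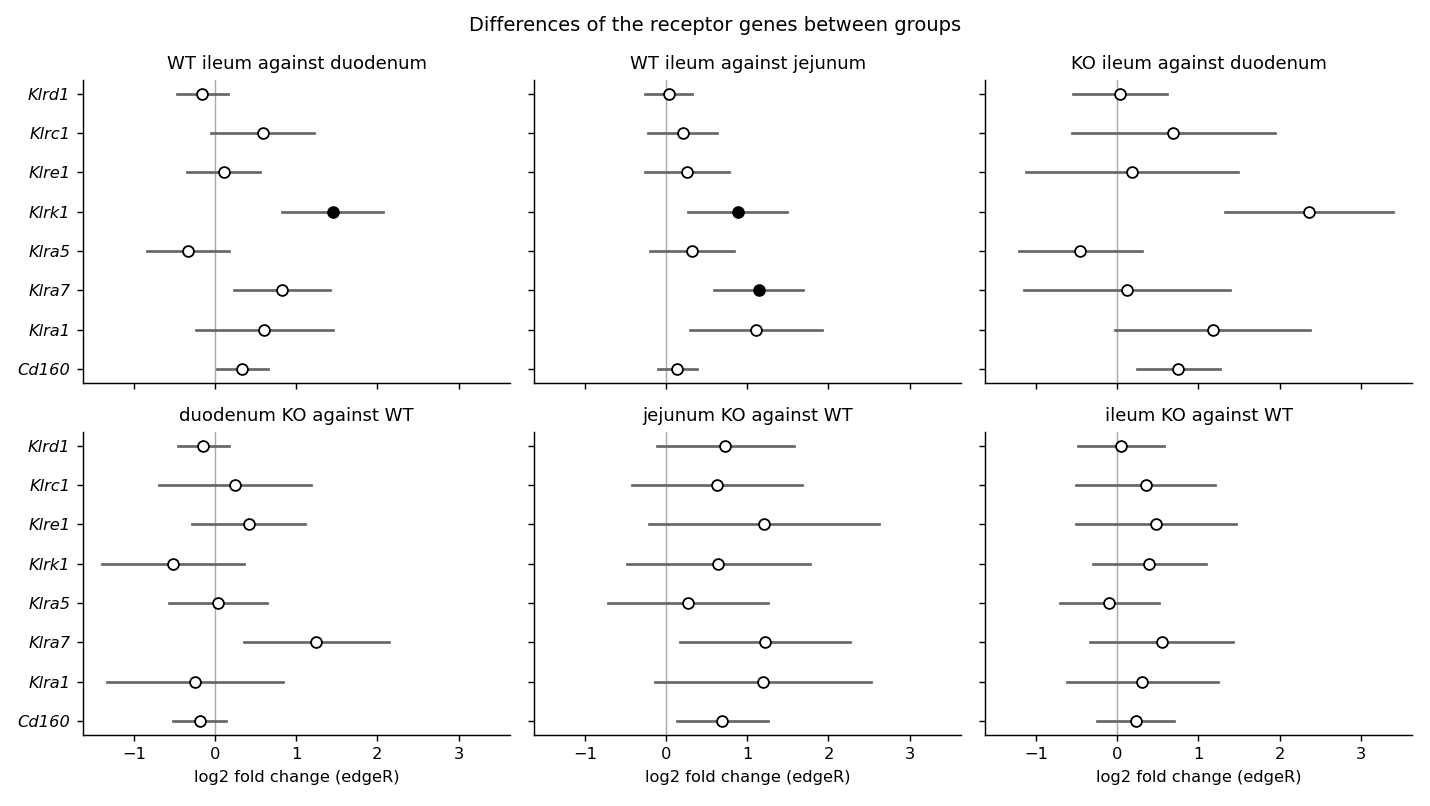
Bulk log2 fold changes of the 8 receptors. Lines give approximate 95% intervals from the SE (normal approximation), and they can be narrower than the edgeR test allows. For Cd160 in WT ileum against WT duodenum the line runs from 0.025 to 0.649, while the unadjusted edgeR p was 0.0567. Filled symbols are members called by edgeR and open symbols the others. The top row holds 3 comparisons between segments: WT ileum against WT duodenum, WT ileum against WT jejunum and KO ileum against KO duodenum. The bottom row holds 3 comparisons between genotypes. The filled symbols are Klrk1 in WT ileum against both other WT segments and Klra7 in WT ileum against WT jejunum, and no genotype comparison has one. WT jejunum against WT duodenum is not drawn.

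Among single cells at full depth, the most common pattern was CD94 with CD160. Exactly 2 of the 8 receptors were found in 47.2 to 53.3% of cells of each library, and none in 1.90 to 4.25%. The combination Klrd1 with Cd160 and no other member made up 42.7 to 48.9% of cells. The mean number of receptors per cell was 1.77 to 2.00, and 1.35 to 1.51 after thinning to 2000 UMIs.

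Whether receptors occurred together was read within each library over 10 bins of depth, as an odds ratio of finding both. Of the 28 pairs, 19 had an odds ratio above 1 in all 6 libraries, and 13 and 8 with cells thinned to 2000 and 1000 UMIs. The share of other gene pairs that met the same rule is not given here. The count is therefore not a result about the receptors as a set. Klrd1 and Cd160, the 2 most widely found, were below 1 in all 6 (0.476 to 0.855), with 14701 cells holding both against 14951 expected. Cells of 1 library are not replicates, so these are descriptions with no test.

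Klrd1 was found in 81.5% of all cells, in 96.6 to 98.6% of the cells with Klre1 and in 88.7 to 95.8% of those with Klrc1, its partner. Cells with Klra5 held it in 91.5 to 96.6% and cells with Klrk1 in 91.7 to 96.2%, so a high share was not particular to the partner. The median odds ratio with Klrd1 was 2.95 for Klrc1, 3.73 for Klra5, 4.68 for Klrk1 and 10.9 for Klre1. The pair Klra5 and Klre1 occurred in 646 cells against 222 expected (odds ratio 4.31 to 6.2), and Klre1 with Klrk1 in 287 against 92.4. Klrc1 with Klrk1 occurred in 125 cells against 36.3, and Klra7 with Klrk1 in 67 against 10.5. Ly49E and NKG2D did not go together in the same way. Klra5 with Klrk1 occurred in 56 cells over all libraries against 53.2 expected, and the libraries differed. In WT and KO the odds ratios were 0.137 and 0.376 in duodenum (1 and 2 cells), 0.360 and 1.12 in jejunum and 1.06 and 1.81 in ileum. KO ileum held 34 such cells against 21.2 expected.

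Within the Ly49 family, Klra1 and Klra7 occurred together in 37 cells against 1.21 expected, and in 5 of 6 libraries the odds ratio was above 1, with a median of 82.0. Klra5 and Klra7, whose promoter windows share 228 bases, occurred together in 54 cells against 21.9. Klra5 was found in 1837 cells in all, so 54 are a minority of them. By level alone, Klra1 was not distinguishable from free RNA, as given above.

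**Figure D4:**
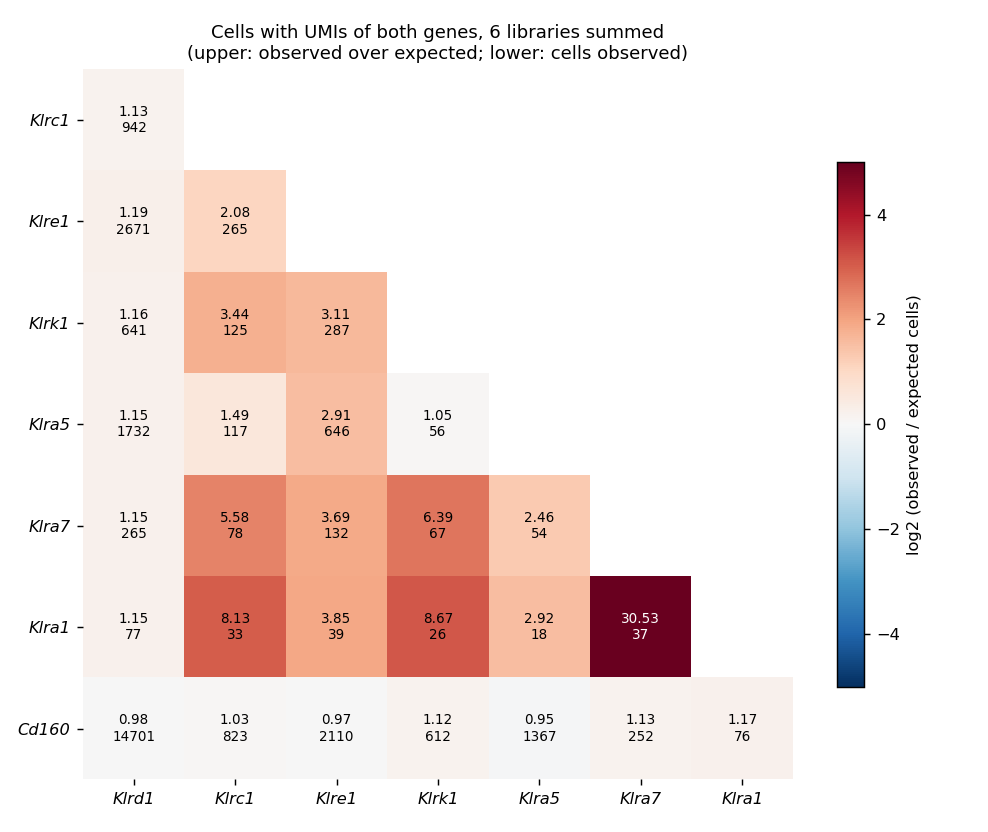
Co-detection of the 28 receptor pairs over the 6 single-cell libraries, with the colour giving log2 of the observed over the expected number of cells with UMIs of both genes (expected within library and depth bin), and in each square that ratio above the cells observed. Klra1 with Klra7 has the highest ratio at 30.5, and Klrd1 with Cd160 is near 1 at 0.983.

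Cells with and without CD94 differed in their programmes, as did cells with and without CD160. These are largely the same cells: 14701 held both genes, of 19406 with Klrd1 and 18284 with Cd160. The contrast below therefore rests on the cells in which 1 of the genes was not found. Cells with Klrd1 more often held Gzmb (median odds ratio over the 6 libraries 10.7) and Gzma (8.75), which encode granzymes, and Cd8a (5.23), and less often Tcf7 (0.18), a transcription factor of less differentiated T cells, and Thy1 (0.26). Cells with Cd160 were the reverse, with Tcf7 at 8.53, Gzma at 0.16 and Gzmb at 0.17. All of these were on 1 side of 1 in 6 of 6 libraries. By correlation over cells, the 3 genes most like Klrd1 included Gzma and Ccl5 (mean r 0.52 each over 6 libraries), and for Cd160 they included Xcl1 (0.43) and Tcf7 (0.39).

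Cells with Klra5 had the adaptors of activating receptors: Tyrobp was found in 92.5% of them against 45.2% of the other cells (medians over libraries; odds ratio 14.7), Fcer1g in 99.5 against 77.9% and Il2rb, a receptor chain for IL-15, in 93.6 against 67.2%. They seldom held Thy1 (9.07 against 37.0%) or Il7r (1.87 against 10.5%). Tyrobp was also the gene most like Klra5 in bulk pools (Pearson r 0.94 over 22 libraries, after group means were taken out) and in single cells (mean r 0.30). The values of 1 library share its depth and quality, and these correlations are descriptions.

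In the bulk pools, likeness between genes was read over the 22 libraries, after group means were taken out. Klrk1 and Klrc1 were each other's most similar gene (r 0.91 among 9027 genes compared), and Klre1 came next for both (0.87 and 0.89). Klrd1 was most like Cklf (0.96), Cd160 most like AW112010 (0.95) and Klre1 most like Mtcp1 (0.94). For Klra7 and Klra1 the highest values were 0.81, with Zfp944 and Dph3. Jejunal KO replicate 3 stands apart for Klrk1, Klrc1 and Klre1 alike. Without it, over 21 libraries, Klrk1 and Klrc1 were still each other's most similar gene (0.87), and Klre1 had 0.79 with Klrk1 and 0.84 with Klrc1. The most similar gene then became 2610001J05Rik for Klrd1 (0.95), Gimap7 for Cd160 (0.93), Hnrnph1 for Klre1 (0.90) and Dbf4 for Klra7 (0.79), while it stayed Tyrobp for Klra5 (0.91) and Dph3 for Klra1 (0.71). In single cells, the values of Klra1 and Klra7 with their most similar genes were 0.11 or less, which in such sparse counts is no finding.

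Cells with Klrk1 and with Klrc1 leaned the other way. Il7r was found in 20.7% of Klrk1 cells against 9.68% of others and in 25.5% of Klrc1 cells against 9.35%, and Thy1 in 52.8 against 34.0% and 54.2 against 33.9%. Hcst, the NKG2D adaptor, was found in 95.7% of Klrk1 cells against 90.4%, with an odds ratio above 1 in 6 of 6 libraries (1.24 to 4.62). Granzyme B was less frequent with Klrk1 (65.3 against 76.1%) and more frequent with Klrc1 (88.3 against 75.2%). Klrc2, which shares many words with Klrc1, was found with it in 39 cells against 5.45 expected, and with Klrk1, which shares none, in 37 against 4.18.

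Related Ly49 genes outside the list were found in some of the same cells. Klra6 was found in 15.8% of Klra7 cells against 1.05% of others and in 4.32% of Klra5 cells against 0.990%. Klra3 was found with Klrd1 in 5.65% against 0.563% of cells, with an odds ratio above 1 in 6 of 6 libraries (5.48 to 17.5). Klra3 shares 16.3% of its 55-base words with other genes, none of them Klra1, Klra5 or Klra7, and Klra6 1.41%.

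Cells with Klra7 held Fcer1g in 97.3% against 79.4% and Klrb1c (NK1.1) in 22.4 against 4.30%, and Cd8a in 61.7 against 88.1%. Klri1, the partner of Klre1, was found in 6.54% of Klre1 cells against 4.22%, and Klri1 was in 3.76 to 4.52% of all cells. Ncr1, the NK cell receptor NKp46, was found in 28 cells only, 0 to 8 per library, and these stood out for the members. Cd160 was found in 28 of them, Klrd1 in 26, Klrk1 in 19, Klrc1 in 18, Klra7 in 16, Klre1 in 14, Klra1 in 11 and Klra5 in 2.

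All 28 cells with Ncr1 also held a Cd3 UMI, with a median of 32.5 Cd3 UMIs against 44 in the other cells, at a similar depth (5426 against 5091 UMIs). This comparison was chosen after the values were seen. Without these 28 cells, Klrk1 ileum over duodenum was 2.27 in WT and 4.83 in KO and Klra7 KO over WT was 2.07, 1.48 and 2.08 from duodenum to ileum. Of the 37 cells with Klra1 and Klra7, 31 remained. The count of members higher in ileum in both genotypes was 4 and not 5 without them.

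**Figure D5:**
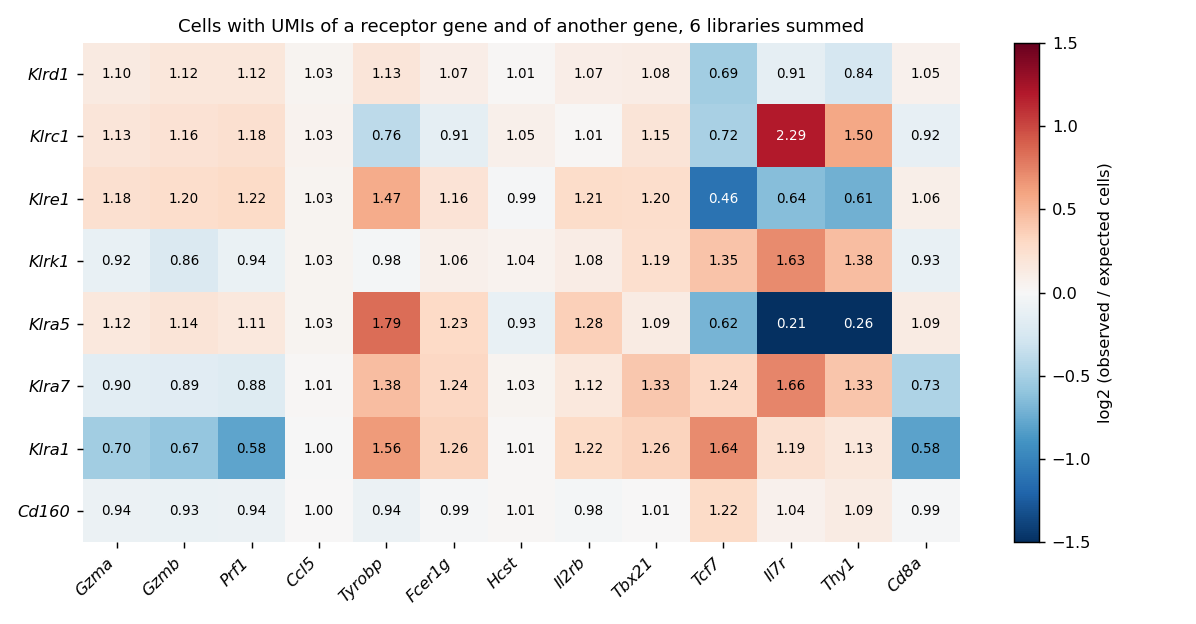
Cells with a UMI of a receptor (rows) and of a cytolytic, adaptor or T cell state gene (columns) over the 6 single-cell libraries, with the observed over the expected number of cells in each square and its log2 as the colour. Klrd1 and Cd160 stand on opposite sides of 1 for Tcf7 (0.69 and 1.22) and Gzmb (1.12 and 0.93), and Klra5 has the highest ratio for Tyrobp (1.79) and the lowest for Il7r (0.21).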

How the data were processed

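Bulk RNA-sequencing of 22 γδ IEL libraries and single-cell RNA-sequencing of 6 were used. The authors mapped bulk reads with ArrayStudio, and the expected counts per gene estimated with RSEM were deposited without normalization (4.92% of values were not whole). Of the table's columns, 1 belongs to no sample used here. For single cells the deposited values are UMI counts from Cell Ranger (GRCm38 per the labels), also without normalization. The kit and the age of mice differ between labels and methods, so the labels' ages are given.

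Expected counts were rounded. The edgeR 4.0.16 quasi-likelihood test (TMM) was fitted to the 2 groups compared, over genes that reached 10 counts in a number of libraries equal to the size of the smaller group, and genes were called at a Benjamini-Hochberg adjusted p below 0.05 and a fold change above 1.5. Rows without a symbol (0.253 to 3.47% of reads) were kept. DESeq2 1.42.0 and limma 3.58.1 (voom, quality weights) were alternatives. All 30 replicate pairs differed by more than sampling noise (chi-square per degree of freedom at least 14.3). The tests were checked on simulated counts. CPM and log2 values derive from these counts.

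In single cells, barcodes with fewer than 500 genes (170 of 23994) were left out. Doublets were not called, and leaving out the highest 5% of UMIs was an alternative. The tables hold no mitochondrial and no TCR constant genes, so filters on these were not applied. Intervals of levels, shares and ratios are exact at 95%. They cover counting error only, and reads or UMIs of 1 pool are not separate animals. Co-detection was read as the Mantel-Haenszel odds ratio over 10 depth bins.

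The receptors and gene lists were chosen with earlier results of these data known. Named genes are the 8 receptors, Btnl2, called genes of the lists (at most 5 in each direction), their adaptors and partners, and for each receptor the 3 genes most correlated with it. The values of cells with Ncr1, and the correlations without jejunal KO replicate 3, were added after the values were seen.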

Additional observations from a re-analysis of the deposited data

Results flagged for a closer look

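In groups of 4 bulk libraries, 5 receptor values lay far from the other 3 by Dixon's gap test (the gap to the nearest library over the group's range). They came from 32 sets tested, each of 1 receptor in 1 group. Chance gives about 1 in 20 for independent sets. These sets are not independent, since receptors varied together over libraries (Klrk1 with Klrc1, r 0.91). Of the 5 values, 4 belong to the same library, jejunal Btnl2-KO replicate 3. Its Klre1 was 172 CPM against 20.3 to 25.2 in the others (gap share 0.968), its Klrk1 36.4 against 7.15 to 10.0 (0.902), its Klrc1 57.1 against 11.1 to 17.2 (0.866) and its Klra5 97.9 against 19.2 to 31.9 (0.838). In the fifth, WT jejunal replicate 1 held 18.6 CPM of Klrk1 against 7.38 to 8.49 in the other 3 (0.901). The values of the jejunal genotype comparison without KO replicate 3 are given with that comparison.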

How the results depend on the processing

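Over 1640 values of single receptors under alternatives, 1605 kept their direction and side of the threshold or were called in neither fit, 24 lost a call, 10 gained one and 1 reversed: Klre1 in KO ileum against KO duodenum, 0.18 on the log2 scale, became -1.25 with the epithelial level as a covariate. Called in neither fit, 122 values changed sign. The cause was not tested for any of these.

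In WT ileum against duodenum the count of called receptors went from 1 to 0 with the epithelial covariate, with T cell gene scaling and with all 22 libraries in 1 fit, and was 0 to 1 without 1 library. In WT jejunum against duodenum it went from 1 to 0 with limma-voom and with all 22 libraries, and was 0 to 1 without 1 library. In WT ileum against jejunum it went from 2 to 1 without a filter on low counts and to 0 with all 22 libraries, and was 1 to 3 without 1 library. In KO ileum against duodenum it went from 0 to 1 with DESeq2, to 2 with limma-voom and to 3 with the epithelial covariate, and stayed 0 without 1 library. Apart from DESeq2 and limma-voom, the shares of all genes called under these alternatives are not given here. The counts are therefore not a result about the receptors as a set.

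Receptors higher in ileum in both genotypes in single cells numbered 5, and 3 after thinning to 2000 or to 1000 UMIs. Pairs above 1 in all 6 libraries numbered 19, 13 at 2000 UMIs and 8 at 1000 UMIs. Why fewer pairs met the rule after thinning was not tested. The genotype counts of 0 did not change under any alternative run. No paired analysis was possible because the labels give no replicate numbers shared between groups. The alternative that needed TCR constant genes was not run.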
